A study of Rattus norvegicus with 138 samples.

Results

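The endothelium and blood-brain barrier genes are 10 named rat genes: Cldn5, Ocln, Cdh5, Pecam1, Flt1, Tek, Slc2a1, Abcb1a, Mfsd2a and Vwf. They were found by symbol in tables of 32883 genes. A row was found for 9 of the 10, and Pecam1 was not analysed here. All 9 passed the filter on low counts in each region. RNA was sequenced from tissue punches of 3 brainstem regions of female rats, the nucleus of the solitary tract (NTS), the caudal ventrolateral medulla (CVLM) and the rostral ventrolateral medulla (RVLM), which together set sympathetic outflow to the heart and vessels. Spontaneously hypertensive rats (SHRs), an inbred strain whose blood pressure rises with age, were compared with normotensive Wistar-Kyoto (WKY) controls at ages of 8 wk, 10 wk, 12 wk, 16 wk and 24 wk. The WKY groups had 5, 4, 3, 3 and 3 rats from the youngest to the oldest age and the SHR groups 5, 5, 6, 6 and 6, and each of the 46 rats gave 1 library per region. The rats carried no transgene and received no treatment named in the labels. As these are 2 inbred strains, hypertension and strain background cannot be told apart. P-values of strain and age comparisons measure the spread between rats of the same strain and age. Those that compare regions take each rat as a block and measure how regional differences vary from rat to rat.

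Brain capillaries are lined by endothelial cells that are sealed to each other by tight junctions, carry few transport vesicles and move nutrients and drugs through named transporters, and this is the blood-brain barrier. Cldn5 (claudin-5) and Ocln (occludin) sit in the tight junction strands. Cdh5 (VE-cadherin) holds neighbouring endothelial cells together at adherens junctions. Flt1 and Tek are the endothelial receptors for vascular endothelial growth factor (VEGF) and the angiopoietins. Slc2a1 (GLUT1) carries glucose, Abcb1a (P-glycoprotein) pumps drugs back into blood, and Mfsd2a carries lysophosphatidylcholine lipids and keeps vesicle transport low. Vwf, von Willebrand factor, is made and stored by endothelial cells and helps platelets stick. Slc2a1 is also found in astrocytes, so that the list is enriched for endothelium and not exclusive to it.

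Levels are given as CPM (the counts of a gene relative to the library total, scaled within each region with TMM factors), and CPM do not correct for gene length, so that no gene's level was compared with another gene's. Libraries held 5904580 to 17889400 gene counts, with a median of 10143000. Cdh5 and Vwf had the smallest median counts, 100 and 115 in the NTS. The Cldn5 row held fractional counts in all libraries, as RSEM gives where reads are shared among features, and its values are uncertain for that reason. Abcb1a has a close copy, Abcb1b, for which no row was matched and which was not analysed here. The Abcb1a row held whole counts in all libraries, and whether reads of Abcb1b were counted in it is not known. In a punch, fewer endothelial cells and less RNA per cell cannot be told apart. All 9 matched genes had counts in every library of the 3 regions, with the lowest single value being 33 for Cdh5 in an RVLM library. As all 9 had passed the filter on low counts, this does not test the endothelial label.

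RefSeq promoters, here the 250 bases before the transcription start in the GRCr8 build, were found for 5 of the members: Cldn5, Ocln, Slc2a1, Abcb1a and Flt1. Those of Cldn5, Ocln and Slc2a1 are shown because they span both tight junction strand proteins and the glucose transporter. The lower level of these genes in the NTS than in the RVLM, described further on, was shared by every member analysed. Capitals mark matches on either strand to the GC box GGGCGG and to the hypoxia response core ACGTG. They lie at chr11:95718599-95718848 on the minus strand, chr2:33441199-33441448 on the minus strand and chr5:138002272-138002521 on the plus strand.
Cldn5: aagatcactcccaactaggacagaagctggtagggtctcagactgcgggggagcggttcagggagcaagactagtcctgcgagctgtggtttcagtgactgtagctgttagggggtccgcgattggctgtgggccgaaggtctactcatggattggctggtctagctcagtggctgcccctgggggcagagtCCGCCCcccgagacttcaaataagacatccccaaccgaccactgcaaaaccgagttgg
Ocln: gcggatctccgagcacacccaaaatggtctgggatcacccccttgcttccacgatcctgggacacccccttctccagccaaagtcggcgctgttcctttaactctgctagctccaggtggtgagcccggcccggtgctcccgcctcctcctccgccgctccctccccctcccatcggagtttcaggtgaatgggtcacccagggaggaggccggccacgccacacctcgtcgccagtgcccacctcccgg
Slc2a1: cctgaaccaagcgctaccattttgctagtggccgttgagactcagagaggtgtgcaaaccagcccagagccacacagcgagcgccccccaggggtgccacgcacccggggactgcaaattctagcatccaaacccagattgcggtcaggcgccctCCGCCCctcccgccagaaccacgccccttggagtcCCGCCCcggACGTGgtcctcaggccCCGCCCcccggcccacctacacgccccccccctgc

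The Cldn5 promoter held 1 GC box and the Slc2a1 promoter held 3, along with 1 hypoxia response core, while the Ocln window had none of these letters. A GC box was found in 30.5% and the hypoxia response core in 16.6% of 33469 promoters of the same length. The Abcb1a promoter had 1 GC box, and that of Flt1 had 3 together with 1 TATA box (TATAAA), which 12.9% of the promoters held. The ETS core CCGGAA, the letters that endothelial ETS factors prefer, was in none of the 5 windows and in 12.6% of all promoters. GC content was 58.4% for Cldn5, 66.4% for Ocln and 68.4% for Slc2a1, against a median of 51.2% over all promoters. These matches describe letters in a window and were not tested for use.

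Vwf was lower in SHRs than in WKY rats in each of the 3 regions. Averaged over the ages, the log2 fold change of SHR against WKY was -0.49 (SE 0.09), -0.60 (SE 0.08) and -0.51 (SE 0.09) in the NTS, CVLM and RVLM, with adjusted p of 1.17e-04, 4.89e-07 and 6.24e-05 (edgeR quasi-likelihood test, Benjamini-Hochberg over all genes of the region). In the NTS, Vwf was at 14.6 ± 4.74 CPM in WKY rats (SD, n = 18) and 10.4 ± 2.07 CPM in SHRs (SD, n = 28). The CVLM means were 14.8 ± 3.60 and 10.3 ± 2.69 CPM, and the RVLM means 15.2 ± 4.10 and 10.97 ± 2.29 CPM. Of all genes tested, 11.2%, 12.3% and 10.8% were called in the NTS, CVLM and RVLM, and 5.51%, 7% and 4.98% were called as lower in SHRs. The strain difference in Vwf did not pass a test of change between regions, with 0 of 9 members called in any pair of regions, where 0.449%, 1.82% and 0.32% of all genes were. An unadjusted p under 0.05 was found for 1 of these 27 tests, Mfsd2a between the NTS and CVLM, and limma voom also called 0. The CVLM minus RVLM difference in its fold change was -0.07 (SE 0.12, adjusted p = 1, edgeR).

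**Figure D1:**
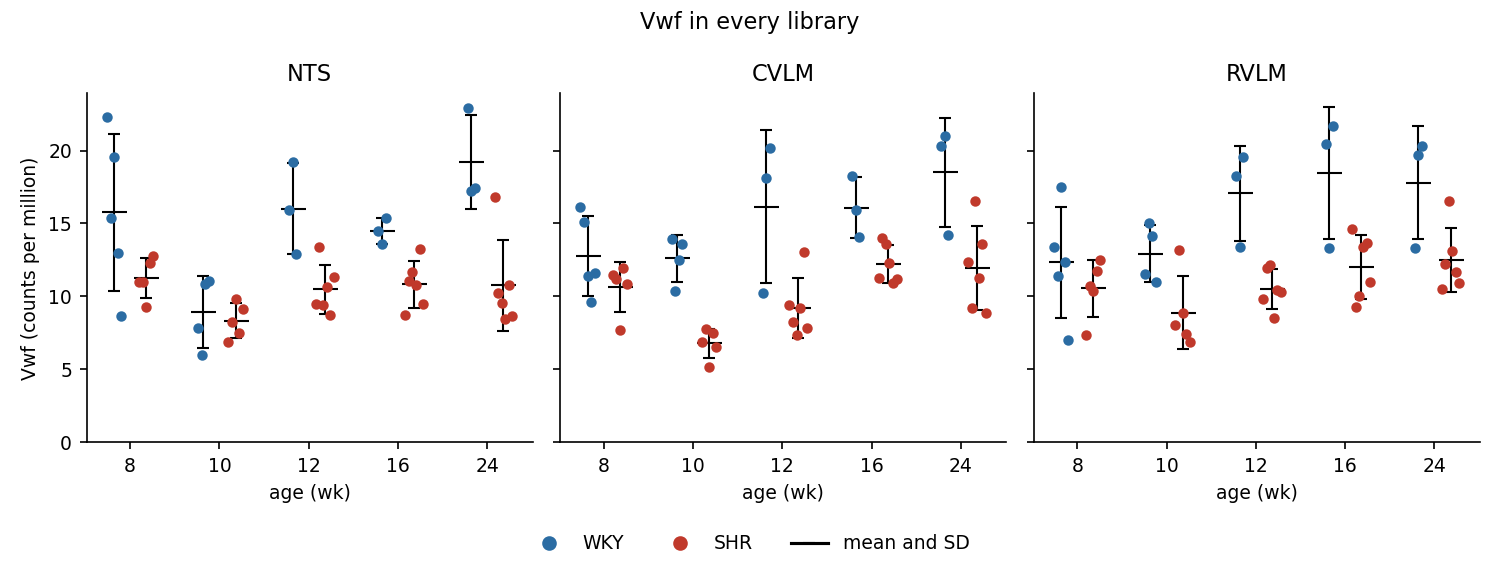
Vwf in CPM (vertical axis) in each library by age in wk (horizontal axis) for the NTS, CVLM and RVLM, with WKY libraries in blue and SHR libraries in red and with the mean and SD of each group in black. In the CVLM at 10 wk and 16 wk, in the NTS at 16 wk and 24 wk and in the RVLM at 12 wk, all SHR points lie below all WKY points.

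At single ages, 3 of the 4 calls for Vwf were in the CVLM. At 10 wk, Vwf in the CVLM was at 13.9, 10.3, 12.5 and 13.6 CPM in the 4 WKY rats and at 6.84, 7.76, 5.19, 7.50 and 6.56 CPM in the 5 SHRs. Every SHR was below the lowest WKY rat, and the log2 fold change was -0.89 (SE 0.19, adjusted p = 0.00146, edgeR). At 12 wk, the 3 WKY rats were at 10.2, 18.1 and 20.1 CPM and the 6 SHRs ran from 7.34 to 13.0 CPM with a median of 8.72. A single WKY rat lay within the range of the SHRs, and the log2 fold change was -0.82 (SE 0.19, adjusted p = 0.00862, edgeR). At 24 wk, the WKY rats were at 20.3, 21.0 and 14.2 CPM and the SHRs ran from 8.88 to 16.5 CPM with a median of 11.8, at a log2 fold change of -0.63 (SE 0.19, adjusted p = 0.0367, edgeR). Here 1 SHR was above the lowest WKY rat. At 16 wk, the WKY rats were at 18.2, 15.9 and 14.0 CPM and the SHRs ran from 10.9 to 14.0 CPM with a median of 11.8. The strains did not overlap, but the nearest values were 14.05 and 14.02 CPM and the change of -0.40 (SE 0.19) was not called (adjusted p = 0.652, edgeR). At 8 wk, the WKY rats were at 16.1, 15.1, 11.4, 9.61 and 11.6 CPM and the SHRs at 11.5, 11.2, 7.68, 11.9 and 10.9 CPM. The ranges overlapped, and the log2 fold change of -0.26 (SE 0.18) was not called. At this age strain and library set were mixed: library names end in the number 1 or 2, all 5 SHRs carry number 1, and 3 of the 5 WKY rats carry number 2. The 2 number-1 WKY rats (16.1 and 15.1 CPM) lay above all SHRs, and the 3 number-2 WKY rats overlapped with them.

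In the NTS, Vwf passed the test at 24 wk. The WKY rats were at 22.9, 17.2 and 17.4 CPM, the SHRs ran from 8.42 to 16.8 CPM with a median of 9.90, and the log2 fold change was -0.84 (SE 0.21, adjusted p = 0.0155, edgeR). All SHRs were below all WKY rats, with SHR replicate 1, at 16.8 CPM, close to them. At 12 wk, WKY rats had 15.9, 19.2 and 12.9 CPM and SHRs 8.70 to 13.4 CPM with a median of 10.1. At 16 wk, WKY rats had 14.5, 13.6 and 15.4 CPM and SHRs 8.73 to 13.3 CPM with a median of 10.9. The strains overlapped at 12 wk and stood apart at 16 wk, and neither change, -0.61 (SE 0.21) and -0.42 (SE 0.21), was called. At 8 wk, WKY rats spread widely, with 22.3, 15.3, 19.6, 13.0 and 8.68 CPM, against 11.001, 10.96, 9.27, 12.3 and 12.7 CPM in SHRs. At 10 wk, the strains were close, with 7.83, 5.97, 10.9 and 11.02 CPM in WKY rats and 6.89, 8.27, 9.83, 7.50 and 9.17 CPM in SHRs. The log2 fold change at 10 wk was -0.10 (SE 0.20).

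In the RVLM, Vwf was lower on average at all ages without a call at any single age. The log2 fold changes ran from -0.22 (SE 0.20) at 8 wk to -0.69 (SE 0.21) at 12 wk, where WKY rats were at 18.2, 13.4 and 19.6 CPM and SHRs from 8.48 to 12.2 CPM with a median of 10.4. The 12 wk ranges did not overlap, and the adjusted p was 0.119 (edgeR). At 16 wk, WKY rats had 20.5, 13.3 and 21.7 CPM and SHRs 9.25 to 14.6 CPM, and at 24 wk WKY rats had 13.3, 19.7 and 20.3 CPM and SHRs 10.52 to 16.5 CPM. The lowest WKY rat fell inside the SHR range at both ages. At 10 wk, WKY rats had 11.5, 15.01, 14.2 and 11.02 CPM and SHRs 8.07, 13.2, 8.88, 7.39 and 6.90 CPM, so that a single SHR overlapped. At 8 wk, WKY rats had 13.4, 11.4, 17.5, 12.4 and 6.98 CPM and SHRs 7.36, 10.7, 10.4, 11.8 and 12.5 CPM.

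When the 3 regions of each rat were averaged, the strains did not overlap in Vwf at 10, 12, 16 and 24 wk. Mean Vwf per rat was 13.6 CPM in WKY rats and 10.8 CPM in SHRs at 8 wk, where the strains overlapped through number-2 WKY rats. The number-1 WKY rats were at 17.3 and 13.9 CPM, the number-2 WKY rats at 16.1, 11.6 and 9.09 CPM, and the SHRs ran from 9.11 to 12.03 CPM. It was 11.5 against 8.00 CPM at 10 wk, 16.4 against 10.1 CPM at 12 wk, 16.4 against 11.7 CPM at 16 wk and 18.5 against 11.7 CPM at 24 wk. At each of these 4 ages, every SHR was below every WKY rat. The rat means of 2 other members stood apart at 1 age each, with SHRs higher: Cdh5 at 8 wk (13.9 against 10.3 CPM) and Tek at 24 wk (23.3 against 16.7 CPM). That made 6 of 45 member and age pairs, or 13.3%. Among all genes, rat means of the strains did not overlap in 9.14% of 65580 gene and age pairs. By single regions, members did not overlap in 6 of 135 combinations of gene, region and age, against 6.22% of combinations over all genes, and Vwf made up 5 of these 6.

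Over the 15 comparisons of region and age, 4 of 135 member tests were called, all of them Vwf as lower in SHRs. The share of all genes called in the NTS was 5.79%, 4.44%, 3.1%, 1.73% and 2.46% in the order of the ages. It was 7.64%, 3.18%, 2.62%, 2.27% and 7.13% in the CVLM and 9.78%, 2.3%, 1.7%, 1.65% and 2.24% in the RVLM. A test of whether the strain difference changed with age called 0 of 9 members in any region (edgeR), with 0.0145%, 0.0224% and 0.00746% of all genes called, so that no age was shown to differ from another. An unadjusted p under 0.05 was found for 2 of these 27 tests, Ocln and Tek in the CVLM, and DESeq2 also called 0. At single ages DESeq2 called 5 of 135, the same 4 and Flt1 as lower in SHRs at 8 wk in the CVLM (log2 fold change -0.64, adjusted p = 0.0479). This Flt1 change was not called by edgeR (-0.65, SE 0.22, adjusted p = 0.0671). The number-1 WKY rats were at 15.2 and 19.7 CPM, inside the range of the SHRs (5.43 to 20.8 CPM), which all carry number 1. The number-2 WKY rats were above it, at 22.0 to 25.3 CPM. The Vwf calls at single ages rested on few rats. That at 24 wk in the NTS was lost without WKY replicate 1 (adjusted p = 0.244), and that at 12 wk in the CVLM without WKY replicate 2 (0.0701) or 3 (0.182). That at 24 wk in the CVLM was lost without any 1 of WKY replicates 1 and 2 at 24 wk (0.210 and 0.152), SHR replicates 1, 2 and 6 at 24 wk (0.0529, 0.0672 and 0.0936) or SHR replicate 2 at 10 wk (0.0591), all adjusted p from edgeR. Without WKY replicate 1 at 24 wk, the number of calls was 2. The call at 10 wk in the CVLM and the 3 Vwf calls averaged over ages were kept when each rat in turn was left out.

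Red blood cell transcripts were, like Vwf, lower on average in SHRs. The summed level of Hbb, Hba-a1, Hba-a2 and Alas2, none of which was at 0, averaged 844 CPM in WKY rats (349 to 2175) and 605 CPM in SHRs (168 to 1425) in the NTS. It averaged 926 (309 to 1954) against 487 CPM (166 to 900) in the CVLM and 818 (282 to 1876) against 478 CPM (174 to 1053) in the RVLM. Of the 4 genes, 2 were called as lower in SHRs in the NTS and 4 in the CVLM and RVLM. Across the 46 libraries of a region, which share strain and age groups, Pearson's r between Vwf and this sum was 0.57, 0.63 and 0.38 in the NTS, CVLM and RVLM, and it was 0.17, -0.08 and 0.00 after the mean of each strain and age was taken out. Choroid plexus markers summed to 6.65 to 4574 CPM in WKY and 3.501 to 11.9 CPM in SHR punches of the NTS, with a WKY median of 9.59 CPM, and to 4.96 to 10.8 CPM in SHR and 2.91 to 195 CPM in WKY punches of the CVLM. All 5 NTS libraries and the single CVLM library over 100 CPM came from WKY rats, and no RVLM library exceeded it. Without these 6 libraries, an alternative chosen after seeing the data, Vwf remained called averaged over ages at -0.51 (SE 0.10, adjusted p = 2.48e-04) in the NTS and -0.58 (SE 0.09, adjusted p = 2.10e-06) in the CVLM. The call at 12 wk in the CVLM was lost (adjusted p = 0.0701), and Vwf in the NTS was then also called at 8 wk (-0.70, SE 0.20, adjusted p = 0.0368, edgeR). The part of blood in the lower Vwf was not tested.

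Cdh5 was higher in SHRs in the NTS. It was at 9.07 ± 2.08 CPM in WKY rats (SD, n = 18, 6.16 to 14.2) and 11.3 ± 3.01 CPM in SHRs (SD, n = 28, 6.91 to 21.1), a log2 fold change of 0.33 (SE 0.10, adjusted p = 0.0253, edgeR). The groups overlapped widely, and the change lost its call without WKY replicate 3 at 16 wk (adjusted p = 0.0608) or without WKY replicate 1 at 24 wk (adjusted p = 0.0529). It was also lost without the 5 WKY libraries of the NTS with choroid plexus markers over 100 CPM, where the log2 fold change was 0.37 (SE 0.13, adjusted p = 0.0676, edgeR). In the CVLM and RVLM the changes were 0.17 (SE 0.09, adjusted p = 0.265) and 0.19 (SE 0.10, adjusted p = 0.267) and were not called. The NTS and CVLM changes did not differ by test (difference 0.13, SE 0.13, adjusted p = 0.937, edgeR). By single region and age, Cdh5 did not overlap between the strains in the CVLM at 8 wk, where SHRs ran from 13.0 to 15.7 CPM and WKY rats from 9.39 to 12.8 CPM. Pericyte markers, 8 genes of the cells that wrap capillaries, moved with Cdh5. Their sum was 84.5 CPM in WKY rats (64.5 to 111) and 96.6 CPM in SHRs (75.4 to 146) in the NTS, none was at 0, and 3 of 8 were called as higher in SHRs. Pearson's r of Cdh5 with that sum was 0.76 over the 46 NTS libraries and 0.65 within groups. Its part in the higher Cdh5 was not tested.

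The remaining 7 members, Cldn5, Ocln, Flt1, Tek, Slc2a1, Abcb1a and Mfsd2a, were not called between strains in any region when averaged over ages. Their log2 fold changes ran from -0.06 (Flt1, SE 0.12) to 0.09 (Tek, SE 0.09) in the NTS, from -0.15 (Flt1, SE 0.11) to 0.09 (Tek, SE 0.08) in the CVLM and from -0.17 (Flt1, SE 0.11) to 0.21 (Ocln, SE 0.09) in the RVLM. Slc2a1 had the smallest SE, with a change of 0.01 (SE 0.04) in the CVLM at 136 ± 11.9 CPM in WKY rats and 137 ± 12.6 CPM in SHRs. Abcb1a was at 20.9 ± 4.35 and 20.6 ± 3.46 CPM there. Mfsd2a in the CVLM was at 50.3 ± 5.61 CPM in WKY rats and 46.1 ± 5.44 CPM in SHRs, a change of -0.13 (SE 0.05) with an unadjusted p of 0.0224 and an adjusted p of 0.13 (edgeR). The median over the 9 members was 0.01, 0.01 and 0.02 in the NTS, CVLM and RVLM, next to a median over all genes of 0.01, -0.00 and 0.01. The summed level of the 9 was 346 ± 35.5 CPM in WKY rats and 347 ± 54.9 CPM in SHRs in the NTS, 420 ± 37.2 and 402 ± 34.1 CPM in the CVLM, and 433 ± 58.5 and 432 ± 49.3 CPM in the RVLM, so that the sums overlapped in each region.

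**Figure D2:**
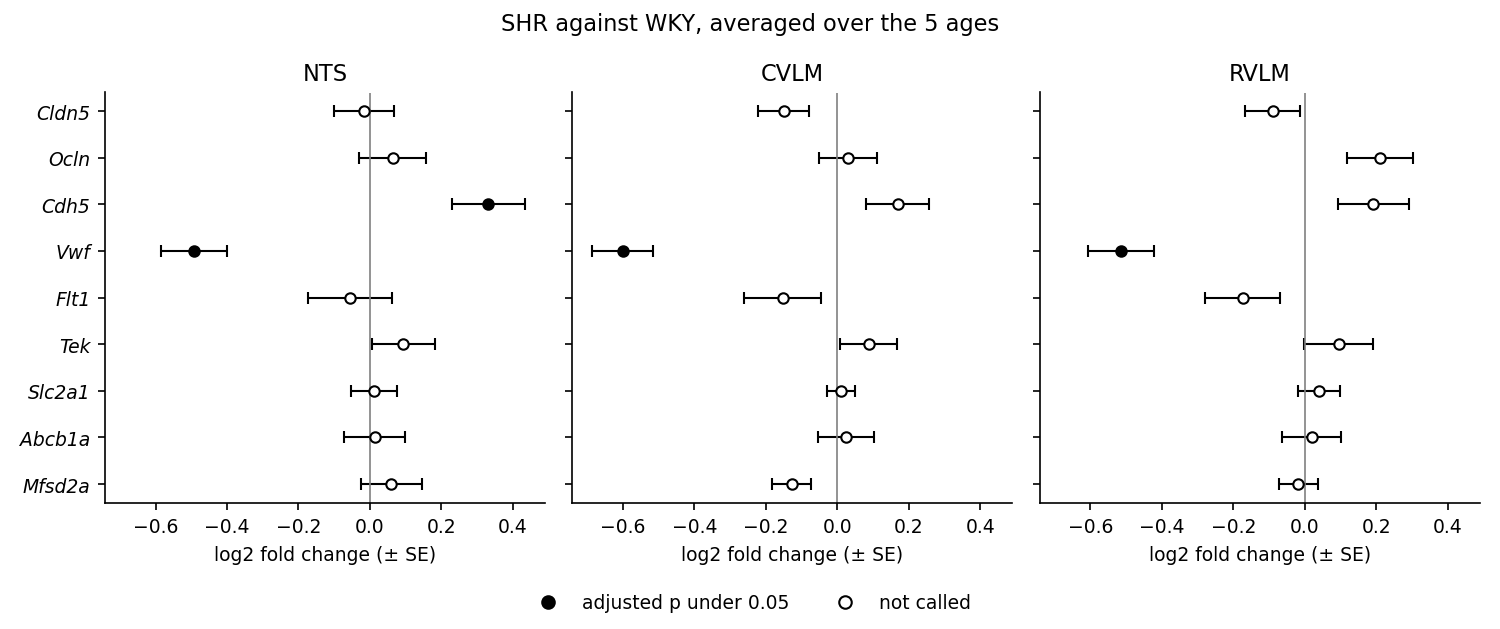
Log2 fold change of SHR against WKY (horizontal axis, with SE bars) of the 9 members (vertical axis) averaged over the 5 ages in the NTS, CVLM and RVLM. Filled points passed the test: Vwf at -0.49, -0.60 and -0.51, and Cdh5 in the NTS at 0.33.

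Members differed between the regions of the same rats. In a fit over all libraries of the 46 rats with the rat as a block, all 9 members were lower in the NTS than in the RVLM, 8 of 9 were lower in the NTS than in the CVLM, and 4 of 9 were lower in the CVLM than in the RVLM. Most genes differed between regions: 72.7%, 65.9% and 54% of all genes were called in these comparisons, and 36.9%, 32% and 28.2% were called as lower in the first region named. The median over members was -0.41, -0.33 and -0.12 on the log2 scale, next to -0.01, 0.01 and -0.00 over all genes. For this comparison, CPM were scaled over all regions together, so that they differ slightly from the CPM above.

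Mfsd2a had the largest regional difference of the members in these fits. It was at 30.1 ± 6.26 CPM in the NTS (19.5 to 43.9, median 28.4), 48.8 ± 5.82 CPM in the CVLM (35.7 to 59.3, median 49.1) and 55.9 ± 7.82 CPM in the RVLM (42.0 to 71.7, median 56.6, SD, n = 46 each). The NTS was below the RVLM in 46 of 46 rats and below the CVLM in 45 of 46. The log2 fold changes were -0.92 (SE 0.04, adjusted p = 4.32e-34) against the RVLM and -0.73 (SE 0.04, adjusted p = 1.65e-27) against the CVLM (edgeR). The CVLM lay below the RVLM in 37 of 46 rats, by -0.19 (SE 0.04). The order was therefore NTS, CVLM and RVLM, with each step past the test.

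Among the tight junction genes, Cldn5 ran from 51.6 to 142 CPM in the NTS (median 95.8), 70.3 to 191 CPM in the CVLM (median 131) and 78.1 to 204 CPM in the RVLM (median 151). It was lower in the NTS than in the RVLM in 45 rats, by -0.59 (SE 0.04), and than in the CVLM in 44 rats, by -0.45 (SE 0.04). The CVLM step below the RVLM, -0.14 (SE 0.04), lost its call without replicate 3 of each group (adjusted p = 0.0748). Ocln was at 14.1 ± 3.53, 16.4 ± 3.86 and 17.8 ± 3.90 CPM in the NTS, CVLM and RVLM (SD, n = 46). Its NTS was below the RVLM by -0.33 (SE 0.06), in 39 rats, and below the CVLM by -0.22 (SE 0.06), in 36 rats, while the CVLM and RVLM were not called apart.

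Both receptors had the NTS lowest. Tek was at 18.7 ± 4.20, 22.5 ± 5.66 and 27.8 ± 6.22 CPM in the NTS, CVLM and RVLM, and each step was called, with -0.57 (SE 0.05) for the NTS and -0.33 (SE 0.05) for the CVLM against the RVLM. Tek was lower in the NTS than in the RVLM in 43 of 46 rats and in the CVLM than in the RVLM in 41. Flt1 was at 13.9 ± 3.58, 17.9 ± 4.40 and 18.9 ± 4.40 CPM, with the NTS lower than the RVLM by -0.47 (SE 0.06) and no call between the CVLM and RVLM (-0.10, SE 0.06). Cdh5 had a like order, with 9.66 ± 2.72, 12.0 ± 2.66 and 12.1 ± 2.602 CPM, and the CVLM was above the RVLM in 23 rats and below it in 23.

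Of the transporters, Slc2a1 was at 109 ± 19.1 CPM in the NTS, 140 ± 12.9 CPM in the CVLM and 145 ± 22.5 CPM in the RVLM. The NTS was lower than the RVLM by -0.41 (SE 0.03), in 42 rats, and the CVLM and RVLM did not pass the test (-0.04, SE 0.03). Abcb1a had the smallest NTS to RVLM difference of the members: 20.2 ± 3.63, 21.2 ± 4.07 and 22.7 ± 3.79 CPM. Its NTS was below the RVLM by -0.17 (SE 0.05, adjusted p = 0.00124), and NTS and CVLM were not called apart (-0.05, SE 0.05), with the NTS higher in 23 rats and lower in 23. Its CVLM step below the RVLM, -0.12 (SE 0.05), lost its call in 7 of 10 alternatives (adjusted p of up to 0.105), 6 of which left out each replicate number in turn. Vwf was at 11.2 ± 3.70, 12.3 ± 3.84 and 13.3 ± 3.91 CPM. It was lower in the NTS than in the RVLM by -0.27 (SE 0.06), in 34 rats, and its step below the CVLM, -0.14 (SE 0.06, adjusted p = 0.0372), lost its call in 5 of 10 alternatives, among them without replicate 2, 4 or 5 of each group (adjusted p = 0.175, 0.0796 and 0.0902, edgeR).

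**Figure D3:**
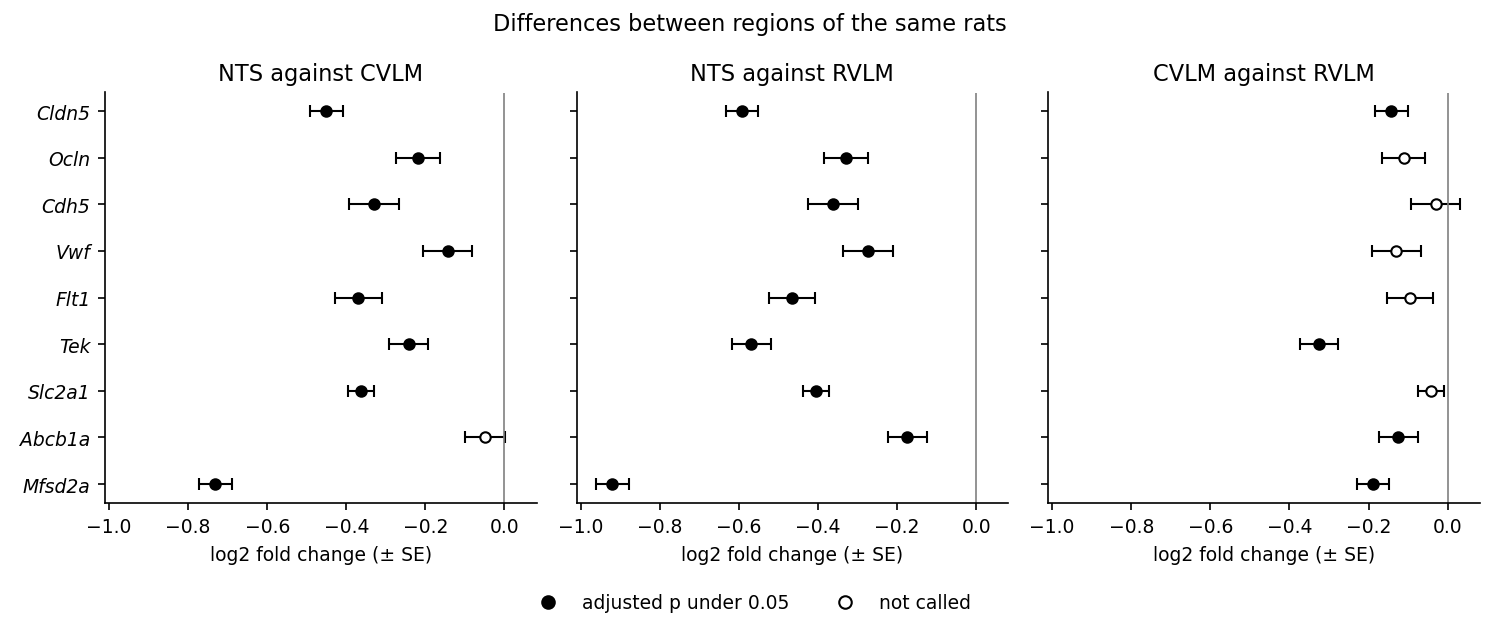
Log2 fold change (horizontal axis, with SE bars) of the 9 members (vertical axis) for NTS against CVLM, NTS against RVLM and CVLM against RVLM in the same 46 rats. The points lie left of 0 in all 3 panels, Mfsd2a reaches -0.92 against the RVLM, and open points did not pass the test.

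Other cell types differed between the regions as well. All 5 oligodendrocyte markers were lower in the NTS than in both other regions, with a median of -0.71 against the RVLM and -0.80 against the CVLM, and all 6 microglia markers were higher in the NTS. Of 5 astrocyte markers, 3 were higher in the NTS than in each other region. Of 8 pericyte markers, 6 were lower in the NTS than in the RVLM, at a median of -0.30, and 4 were lower than in the CVLM. None of the 4 red blood cell markers was called between regions (edgeR), and 0 of these 12 tests had an unadjusted p under 0.05. The share of tissue made up by each cell type was not measured, and its part in the lower member levels of the NTS was not tested.

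Cldn5 was lowest at 10 wk in both strains and all regions. In the NTS, the 5 SHRs at 8 wk were at 126, 137.95, 137, 91.9 and 137 CPM and those at 10 wk at 89.7, 67.2, 58.3, 68.0 and 68.6 CPM. All SHRs at 10 wk were thus below all at 8 wk. Over both strains, Cldn5 at 10 wk ran from 55.7 to 89.7, 70.2 to 112 and 75.3 to 96.8 CPM in the NTS, CVLM and RVLM, and the means at the other ages were 105 to 116, 125 to 138.5 and 131 to 158 CPM. A test of any change with age within a strain (edgeR) called Cldn5 in 5 of 6 combinations of strain and region, with adjusted p of 0.0101 in the NTS of SHRs, 0.0081 and 0.00722 in the CVLM of WKY rats and SHRs, and 0.0194 and 0.00149 in the RVLM. In the NTS of WKY rats the adjusted p was 0.0903. In all, 11 of 54 member tests were called. The others were Ocln in the CVLM of both strains (adjusted p = 0.0449 and 0.019), Tek in the CVLM of both strains (adjusted p = 0.00265 and 0.0344), Vwf in the NTS of WKY rats (adjusted p = 0.0118) and Vwf in the CVLM of SHRs (adjusted p = 0.00286). The shares of all genes called were 12.5% and 18.7% in the NTS, 22.2% and 20% in the CVLM and 6.79% and 14.1% in the RVLM, for WKY rats and SHRs.

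Age and library set could not be separated at 10 wk. Library names end in the number 1 or 2, whose meaning is not given in the sources used here, and all 27 libraries at 10 wk carry number 2. So do 3 of the 5 WKY rats at 8 wk and 1 SHR each at 12 and 24 wk. Number-2 libraries were deeper, with a median of 14677500 gene counts against 9331630 in number-1 libraries. At 8 wk, where WKY rats carry both numbers, Cldn5 in the NTS was at 145 and 128 CPM in the number-1 rats and at 85.8, 79.7 and 94.9 CPM in the number-2 rats. The single number-2 SHR at 24 wk was at 61.2 CPM in the NTS, below the 92.6 to 150 CPM of the 5 others. With the number as a term in the model, chosen as an alternative, Cldn5 was lower in number-2 libraries by -0.62 (SE 0.13), -0.54 (SE 0.11) and -0.59 (SE 0.12) in the NTS, CVLM and RVLM, and each was called. Of all genes, 25.6%, 21.6% and 16.4% were called for the number.

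Tek and Ocln went the other way. Tek was higher in number-2 libraries by 0.55 (SE 0.15) in the NTS and 0.51 (SE 0.13) in the CVLM, both called, and by 0.41 (SE 0.17, adjusted p = 0.0874) in the RVLM. Ocln was higher by 0.44 (SE 0.13, adjusted p = 0.0161) in the CVLM, and its values of 0.42 (SE 0.18) in the NTS and 0.23 (SE 0.17) in the RVLM were not called. Vwf was lower by -0.44 (SE 0.15, adjusted p = 0.0338) in the CVLM alone (edgeR for all of these). With the number in the model, or with number-1 libraries alone, 0 of 54 member tests of age were called (edgeR), against 11 without it, and 2 and 0 had an unadjusted p under 0.05, against 21. Few genes of any kind were called for age in these fits, 0.31% of all tests with the number in the model and 0.187% in number-1 libraries. Number-1 libraries alone hold no 10 wk rats and have fewer WKY rats at 8 wk. The Vwf strain differences remained in number-1 libraries, at -0.65 (adjusted p = 1.65e-05), -0.56 (adjusted p = 3.31e-04) and -0.50 (adjusted p = 9.95e-04) in the NTS, CVLM and RVLM, and that of Cdh5 in the NTS was 0.40 (adjusted p = 0.0493, edgeR). The fits on number-1 libraries and the values of the number term were added after the data had been seen. Cldn5 also followed the red blood cell sum, with Pearson's r of 0.72, 0.66 and 0.68 over the 46 libraries of the NTS, CVLM and RVLM and 0.58, 0.45 and 0.45 within groups, and the part of blood in its levels was not tested.

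**Figure D4:**
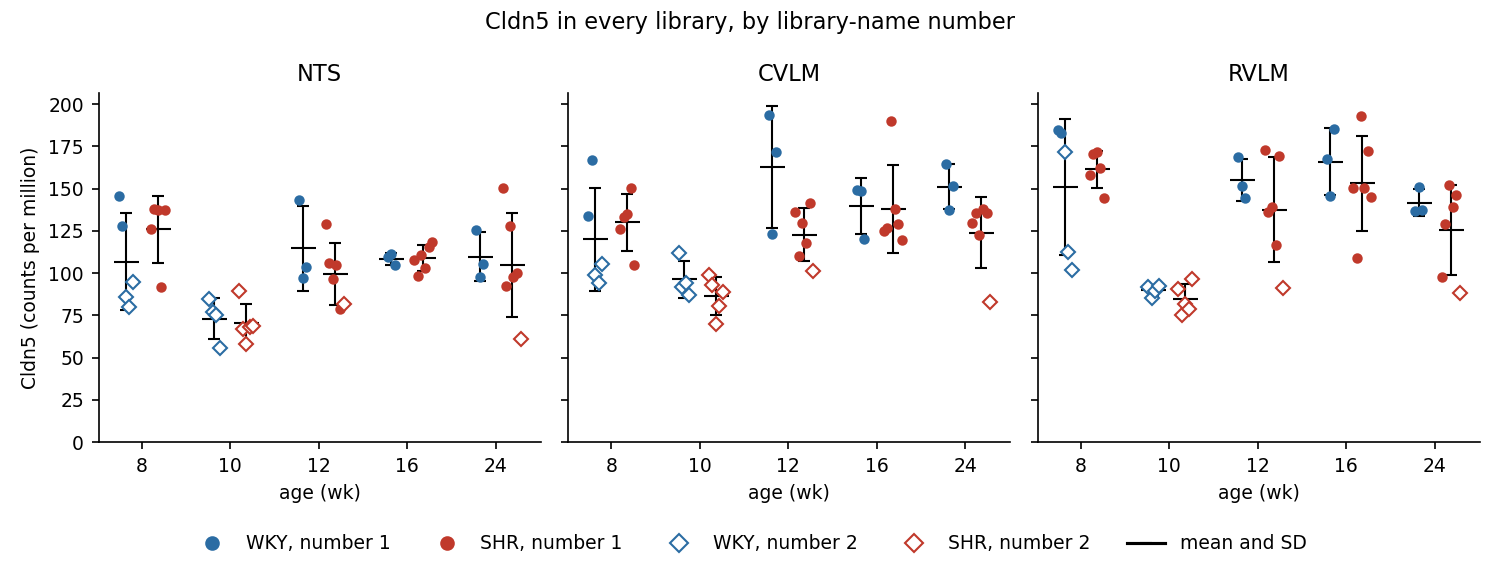
Cldn5 in CPM (vertical axis) in each library by age in wk (horizontal axis), with WKY in blue, SHR in red, filled circles for libraries whose name ends in 1, open diamonds for those that end in 2, and the mean and SD of each group in black. The 9 libraries at 10 wk in each region are all diamonds and sit between 55.7 and 112 CPM, and most diamonds at other ages lie low in their group, unlike the 1 at 172 CPM in the RVLM at 8 wk.

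The members did not vary as 1 unit across libraries. Within groups of strain and age, the pairwise Pearson's r among the 9 members was above 0 in 27 of 36 pairs in the NTS and in 25 of 36 pairs in the CVLM and RVLM, with medians of 0.20, 0.18 and 0.09 over 46 libraries. Slc2a1 and Mfsd2a, 2 transporters, rose and fell together (r of 0.78, 0.45 and 0.50), as did Tek and Abcb1a (0.46, 0.53 and 0.70) and Ocln and Cdh5 (0.55, 0.44 and 0.62). Cldn5 ran against Tek (-0.36, -0.29 and -0.43) and against Abcb1a (-0.35, -0.33 and -0.44) in the NTS, CVLM and RVLM. With the mean of the other members, Cdh5 had r of 0.58, 0.54 and 0.58 within groups and Ocln 0.49, 0.41 and 0.59, while Cldn5 had 0.13, 0.12 and -0.16. These points share library depth and the library number, and no test was made of them.

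Outside the list, the genes whose level over libraries was most like the mean of the members were Slc22a8, Slc6a6, Tmem63a, Slco1c1 and Serinc5, with a Pearson's r, averaged over the 3 regions of 46 libraries each, of 0.60, 0.59, 0.58, 0.57 and 0.57. Slc22a8 is an organic anion transporter, Slco1c1 a thyroid hormone transporter, and Slc6a6 carries taurine. Which cell types the RNA of these genes came from was not tested. The median over 13116 genes was 0.00 and the 95th percentile was 0.30.

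Around the members, other genes with roles in the vessel wall were taken from lists by role, and up to 4 called genes per list are named. Which cell types of the punches their RNA came from was not tested. A call in a region and none in another does not show that the regions differ. Of 9 junction partners tested, 1, 3 and 4 were called between strains in the NTS, CVLM and RVLM, where 11.2%, 12.3% and 10.8% of all genes were. F11r, the junctional adhesion molecule A, was higher in SHRs in all 3 regions. It ran from 4.03 to 9.30 CPM in WKY rats (median 6.24) and from 8.92 to 15.5 CPM in SHRs (median 11.6) in the NTS, so that the strains overlapped only between 8.92 and 9.30 CPM. The log2 fold changes were 0.91 (SE 0.09), 0.87 (SE 0.09) and 0.81 (SE 0.10), with adjusted p of 5.99e-11, 1.23e-10 and 8.86e-09 (edgeR). Cldn12, a claudin, was higher in the CVLM (0.25) and RVLM (0.24). The junction adaptor Cgn (cingulin) was higher in the RVLM (0.52, SE 0.15, adjusted p = 0.019, edgeR). Its level there was low, at 2.40 ± 0.98 CPM in WKY rats and 3.47 ± 1.29 CPM in SHRs. The list medians were 0.12, 0.02 and 0.09.

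Of 12 genes of VEGF and angiopoietin signalling, 2, 2 and 3 were called, all as higher in SHRs, with list medians of 0.10, 0.10 and 0.16. Of all genes, 11.2%, 12.3% and 10.8% were called. Those called as higher were 781 of 13793 in the NTS, 708 of 13408 in the CVLM and 783 of 13411 in the RVLM. Vegfc, a ligand of this family, was at 1.38 ± 0.50 CPM in WKY rats and 2.41 ± 0.54 CPM in SHRs in the NTS, with log2 fold changes of 0.77 (SE 0.14), 0.64 (SE 0.19) and 0.70 (SE 0.14) in the NTS, CVLM and RVLM. Its level is low, near 1 to 2 CPM. Tie1, the partner receptor of Tek, was higher in the NTS (0.29) and RVLM (0.40). Kdr, the main VEGF receptor, was higher in the RVLM (0.30), and the coreceptor Nrp2 was higher in the CVLM (0.40). The Nrp2 change in the RVLM was as large, at 0.40 (SE 0.15), but was not called (adjusted p = 0.0806, edgeR). The member receptors Flt1 and Tek were called in none of the regions.

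Of 12 other endothelial identity genes tested, 3, 2 and 3 were called, in both directions, next to 11.2%, 12.3% and 10.8% of all genes. Cd93, a surface receptor, was higher in the NTS (0.48), at a low level of 2.32 ± 0.96 CPM in WKY rats and 3.04 ± 1.02 CPM in SHRs. Its CVLM change of 0.46 (SE 0.17) was not called (adjusted p = 0.0649, edgeR). The transcription factor Fli1 was higher in the NTS (0.33) and RVLM (0.37). Eng, a coreceptor for TGF-beta ligands, was higher in the CVLM (0.30) and RVLM (0.36). Cd34, a surface sialomucin, was lower in SHRs in the NTS (-0.32) and CVLM (-0.35), at 11.5 ± 2.27 CPM in WKY rats and 8.97 ± 1.86 CPM in SHRs in the NTS. The list medians were 0.14, 0.06 and 0.01. Of 11 further barrier transporters tested, 1, 2 and 1 were called: the cationic amino acid carrier Slc7a1 was higher in the NTS (0.29) and CVLM (0.37), Slc22a8 was lower in the CVLM (-0.24), and the transferrin receptor Tfrc was lower in the RVLM (-0.24). Of 12 genes of the Wnt signalling that sets up the barrier, 0, 1 and 2 were called (edgeR). In the NTS, 4 had an unadjusted p under 0.05 (edgeR), and DESeq2 called 1. Lef1, a transcription factor of the pathway, was lower in the CVLM (-0.47) and RVLM (-0.32), and Tspan12, a coreceptor, in the RVLM (-0.26). The Lef1 change in the NTS, -0.32 (SE 0.12), was not called (adjusted p = 0.0672, edgeR).

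Of 4 genes of caveolae and fenestrae, Cav1 (caveolin-1) was called, as higher in SHRs in the CVLM (0.15) and RVLM (0.21). Of 2 leukocyte adhesion genes that passed the filter, Vcam1 was lower in SHRs in the NTS (-0.21) and CVLM (-0.19), at 66.9 ± 10.4 CPM in WKY rats and 56.7 ± 7.31 CPM in SHRs in the NTS. Pericyte markers were called in 3, 1 and 3 of 8 cases, all as higher in SHRs. The shares of all genes called in these comparisons were 11.2%, 12.3% and 10.8%. Between regions, the endothelial identity list moved with the members. Of its genes, 10 of 12 were lower in the NTS than in the RVLM (median -0.38) and 8 of 12 were lower than in the CVLM (median -0.20). Of the barrier transporters, 8 of 11 were lower in the NTS than in the RVLM (median -0.45). Among all genes, 36.9% were called as lower in the NTS than in the RVLM and 32% as lower than in the CVLM.

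**Figure D5:**
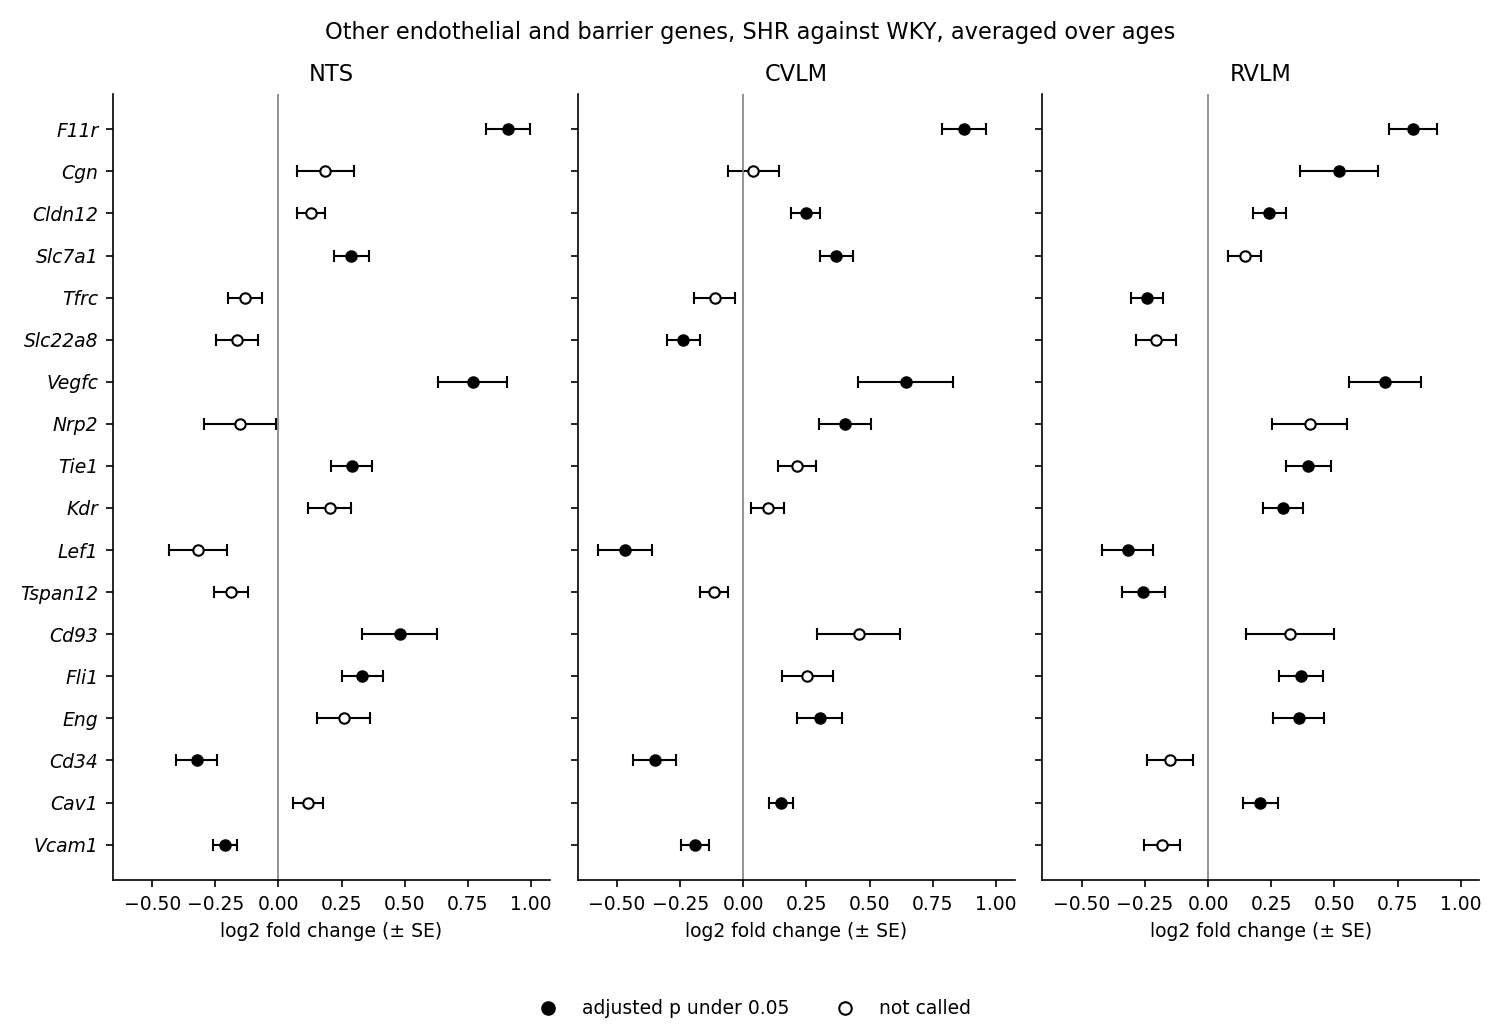
Log2 fold change of SHR against WKY averaged over ages (horizontal axis, with SE bars) for the genes outside the member list that are named above (vertical axis), each called in at least 1 region. F11r (0.91, 0.87 and 0.81) and Vegfc (0.77, 0.64 and 0.70) are filled, past the test, in all 3 panels.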

How the data were processed

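Total RNA from punches was sequenced as paired-end libraries, and per the methods of the study the authors aligned reads to the rat genome build rn6 with STAR within RSEM. The deposited values are RSEM expected counts per Ensembl gene, 1 table per region, not normalized. The methods also name a batch adjustment with ComBat_seq, but the sources used here do not say if the deposited values carry it. In the NTS, CVLM and RVLM, 5.02%, 4.95% and 4.88% of the values are not whole.

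The expected counts were rounded, and genes were kept where the largest rlog value (DESeq2 1.42.0) was at least 3.5, which left 13793, 13408 and 13411 genes in the NTS, CVLM and RVLM. Each region was fitted with edgeR 4.0.16 (R 4.3.3): TMM factors and quasi-likelihood tests over 10 groups of strain and age. Regions were compared in 1 fit over all libraries with the rat as a block. Genes with an adjusted p under 0.05 (Benjamini-Hochberg over all genes of a comparison) were called. Alternatives used DESeq2, limma 3.58.1, other scaling or filters, and sets of libraries. In 2 CVLM libraries the title and the age label conflict, and both were placed at 8 wk by the title. No 2 libraries of a group agreed within counting noise (lowest chi-square per gene 4.81 over 270 pairs). The tests were checked on simulated data. The labels do not say if replicate numbers pair rats across strains. Deviations of same-numbered libraries correlated above 0.1 in 32 of 54 pairs (-0.33 to 0.55, median 0.15). Differently numbered libraries were not compared, so that these values cannot decide whether the numbers mark pairs. Members and gene lists were chosen with earlier results of these data known. Genes named outside the members were, per list, up to 4 called between strains in at least 1 region with the largest change, and the 5 that varied most like the members' mean. A further gene that this rule names is not reported here. Symbols were matched through the tables and RefSeq synonyms. Pecam1, Abcb1b, Ackr1 and Foxj1 were not matched.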

Additional observations from a re-analysis of the deposited data

Results flagged for a closer look

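In 189 groups of 4 to 6 libraries (9 members, regions, strains and ages), the highest or lowest library stood apart from the others by Dixon's criterion in 15, or 7.94%, where chance marks about 1 in 20 groups. SHR replicate 1 at 24 wk in the NTS was the highest of 6 for each of the 9 members. It stood apart by the criterion for 4 of them. Cdh5 was at 21.12 CPM (next 11.4), Abcb1a at 29.53 (next 22.14), Ocln at 25.52 (next 14.67) and Vwf at 16.82 (next 10.79). In SHRs of the CVLM, Cldn5 was at 189.8 CPM in replicate 3 at 16 wk (next 137.7) and at 82.67 CPM in replicate 6 at 24 wk (next 122.5), the latter a number-2 library. In the NTS of SHRs at 8 wk, Cldn5 in replicate 4 was at 91.9 CPM (next 125.9).

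In SHRs of the CVLM, Vwf was at 7.678 CPM in replicate 3 at 8 wk (next 10.86) and at 13.03 CPM in replicate 5 at 12 wk (next 9.438). Abcb1a was at 11.63 CPM in replicate 1 at 12 wk (next 18.94) and Flt1 at 12.5 CPM in replicate 5 at 10 wk (next 21.12) in the same region and strain. In WKY rats of the CVLM at 10 wk, Tek was at 37.58 CPM in replicate 1 (next 24.63) and Ocln at 15.18 CPM in replicate 2 (next 18.51). Mfsd2a was at 66.15 CPM in replicate 2 of SHRs at 8 wk in the RVLM (next 56.27), and Slc2a1 at 142.9 CPM in replicate 1 of WKY rats at 8 wk in the NTS (next 112.4). The causes were not tested.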

How the results depend on the processing

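No fold change of a member that was called in the main fits reversed its direction. Values that were not called could change sign. Vwf in the NTS at 10 wk was at 0.02 (SE 0.20) without the libraries with choroid plexus markers over 100 CPM. Of the 135 member tests of SHR against WKY at each age, 4 were called, and 5 with DESeq2. With the replicate number of the labels as a replicate block 2 were called, with each age fitted alone 1, with a threshold of 0.01 and 2-fold 0 (edgeR, and 0 with DESeq2, where 25 had an unadjusted p under 0.05 in both), and with 1 rat left out 2 to 6. Averaged over ages, 4 of 27 were called, and 3 to 5 under all alternatives. Whether the numbers of the replicate block pair the rats is not known. With that block, Cdh5 in the NTS lost its call (adjusted p = 0.0649, edgeR). So did Vwf at 24 wk in the NTS (0.207) and at 12 and 24 wk in the CVLM (0.124 and 0.23). Of 54 tests of age, 11 were called, 8 to 16 with libraries left out, and 0 with the library number as a term or in number-1 libraries (edgeR, the latter chosen after seeing the data), where 2 and 0 had an unadjusted p under 0.05 and 0.31% and 0.187% of the tests of all genes were called. The block could not be fitted for age. Without the 6 libraries with choroid plexus markers over 100 CPM (chosen after seeing the data), 4 tests at single ages, 3 averaged over ages and 11 of age were called. Of 27 region tests 21 were called, and 19 to 21 under the alternatives. Vwf at 24 wk in the CVLM also lost its call without the filter on low counts (0.104) and without number-2 libraries outside 10 wk (0.0981). The causes were not tested. Cdh5 and Vwf, with median counts of 100 to 129, had the least depth of the members.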
